A study of Mus musculus with 6 samples.

Results

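Immediate early genes are transcribed within minutes of a stimulus from factors already present in the cell, without new protein synthesis. In sensory neurons, calcium entry and growth factor signals reach them through MAP kinases and through the transcription factors SRF and CREB, and their products then switch on later genes or end the signal. FOS and JUN proteins pair as the AP-1 transcription factor, EGR proteins are zinc finger factors, and NR4A proteins are nuclear receptors that act without a known physiological ligand. Their mRNAs are short-lived, so a sample taken days after a stimulus shows the level held at that time, and the handling of fresh tissue is itself a known stimulus.

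The genes described here were chosen by name, as Fos, Fosb, Jun, Junb, Egr1, Egr3, Ier2, Nr4a1, Btg2 and Dusp1. Of these 10 names, 9 had a row among the 13673 gene rows of the deposited table, and the expression of Fosb was not analysed here. The table covered 6 libraries of trigeminal ganglion, which holds the sensory neurons of the face with their glia, from wild-type (WT) mice. Of these libraries, 3 came from mice given complete Freund's adjuvant (CFA), which causes lasting inflammation where it is injected, and 3 from mice given saline, all taken on day 3. The labels name neurons and glia as the cells of the tissue. They give no injection site, strain, sex or age, and do not say whether a library held 1 animal or a pool, so a p-value here covers the spread among libraries, which may be technical. The series title concerns the transcription factor IRF7 and interferon beta in inflammatory pain.

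All values are FPKM (mapped fragments per unit of exon length, scaled to the fragments mapped in the library). The length is that of the merged exons of all annotated transcripts of a gene, whichever of them are expressed. Levels of different genes can therefore be compared only approximately. A log2 fold change is the mean log2(FPKM + 1) of CFA libraries minus that of saline libraries. Its standard error (SE) comes from limma, fitted to all 12238 genes that averaged 1 FPKM or more, and adjusted p-values are Benjamini-Hochberg values over those genes. All 9 immediate early genes with a row were among the genes tested.

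The libraries carried the markers of the ganglion, and they also carried unequal amounts of other tissue. All 14 neuron markers had rows and none was at 0, with summed levels of 5395 to 6144 FPKM in CFA libraries and 4600 to 5680 FPKM in saline libraries. Saline replicate 3 stood apart: each of 13 neutrophil markers, 10 pituitary markers and 9 skeletal muscle markers with a row had its highest value in that library. Neutrophil markers summed to 60.6, 337 and 69.3 FPKM in CFA replicates 1, 2 and 3, against 62.6, 87.4 and 591 FPKM in saline replicates 1, 2 and 3. Their defining members Ly6g and Cxcr2 were at 0 in at least 1 library. Pituitary markers summed to 1159, 313 and 2939 FPKM in CFA replicates 1, 2 and 3, against 2567, 266 and 4960 FPKM in the saline replicates in the same order, and none of them was at 0. Skeletal muscle markers summed to 17.4, 3.41 and 66.6 FPKM in the CFA libraries, against 21.6, 7.37 and 248 FPKM in the saline libraries. In ganglion tissue, a change in the number of cells of a type cannot be told apart from a change in RNA per cell.

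Promoter sequences are shown for 3 members on which the results turn: Dusp1, whose CFA and saline values did not overlap, and Fos and Btg2, whose levels followed each other across the libraries. The sequences are the 250 bases before the RefSeq start of each gene (GRCm38.p6), written 5′ to 3′ on the gene's own strand. Capitals mark TGACGTCA, the full cAMP response element to which CREB binds, and the half-site TGACG, searched on both strands.
Dusp1, chr17:26508473-26508722, minus strand: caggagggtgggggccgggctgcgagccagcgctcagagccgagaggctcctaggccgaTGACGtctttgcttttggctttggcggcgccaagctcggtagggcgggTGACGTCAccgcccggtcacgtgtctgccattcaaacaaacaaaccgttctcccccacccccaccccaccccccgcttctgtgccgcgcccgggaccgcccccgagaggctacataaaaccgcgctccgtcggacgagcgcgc
Btg2, chr1:134079156-134079405, minus strand: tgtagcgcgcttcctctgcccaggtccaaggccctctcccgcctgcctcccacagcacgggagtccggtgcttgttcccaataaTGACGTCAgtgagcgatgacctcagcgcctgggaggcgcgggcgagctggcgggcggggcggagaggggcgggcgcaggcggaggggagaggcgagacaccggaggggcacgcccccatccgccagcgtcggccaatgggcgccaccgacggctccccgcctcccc
Fos, chr12:85473640-85473889, plus strand: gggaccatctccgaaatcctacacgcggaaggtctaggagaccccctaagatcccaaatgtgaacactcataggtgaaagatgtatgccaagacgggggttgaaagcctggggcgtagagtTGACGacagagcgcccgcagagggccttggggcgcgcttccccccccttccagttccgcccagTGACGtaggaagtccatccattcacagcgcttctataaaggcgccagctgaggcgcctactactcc

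The full element began 143 bases before the start in Dusp1 and 166 bases before it in Btg2. Both full elements contain half-sites on each strand, and Dusp1 held a further half-site at 191 bases. In Fos, half-sites began 129 and 66 bases before the start. The promoter table held 7 of the 10 named genes, Fosb among them, in windows of 250 bases before to 50 bases after the start. Promoters of Egr1, Egr3 and Ier2 were not scanned. Of these 7 windows, 2 held the full element, against 1.79% of all 32851 windows, and 6 held the half-site, against 20.8% of all windows. An EGR site (GCGGGGGCG or GCGTGGGCG) was found in the windows of Fosb and Nr4a1, against 3.47% of all windows. None of the 7 windows held the AP-1 site TGANTCA (7.81% of all windows), the CArG box bound by SRF (1.63%) or the NR4A site AAAGGTCA (1.51%). None held the glucocorticoid response element either (0.475%). These matches describe the letters in a short window, and say nothing about what was bound there or about sites outside it.

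On day 3, no immediate early gene passed the test between CFA and saline. By limma, 0 of 9 reached an adjusted p below 0.05, where 0.0572% of all genes tested did (7 of 12238, with 0.0327% higher and 0.0245% lower under CFA). At an unadjusted p below 0.05 stood Dusp1 alone, 1 of 9, where 8.32% of all genes tested reached it (2.95% lower under CFA). The values of CFA and saline libraries did not overlap in the same single member, where the share over all genes tested was 14.5% (7.89% higher and 6.66% lower under CFA). Both counts are near the background. The log2 fold change was below 0 in 8 of 9 members, with a median of −0.10, and above 0 in Ier2. Over all genes tested 48.6% were below 0 and 51.4% above it, with a median of 0.01. Without saline replicate 3 it was below 0 in 6 of 9 members, with a median of −0.06. The plot of values by library shows each member in each group.

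**Figure D1:**
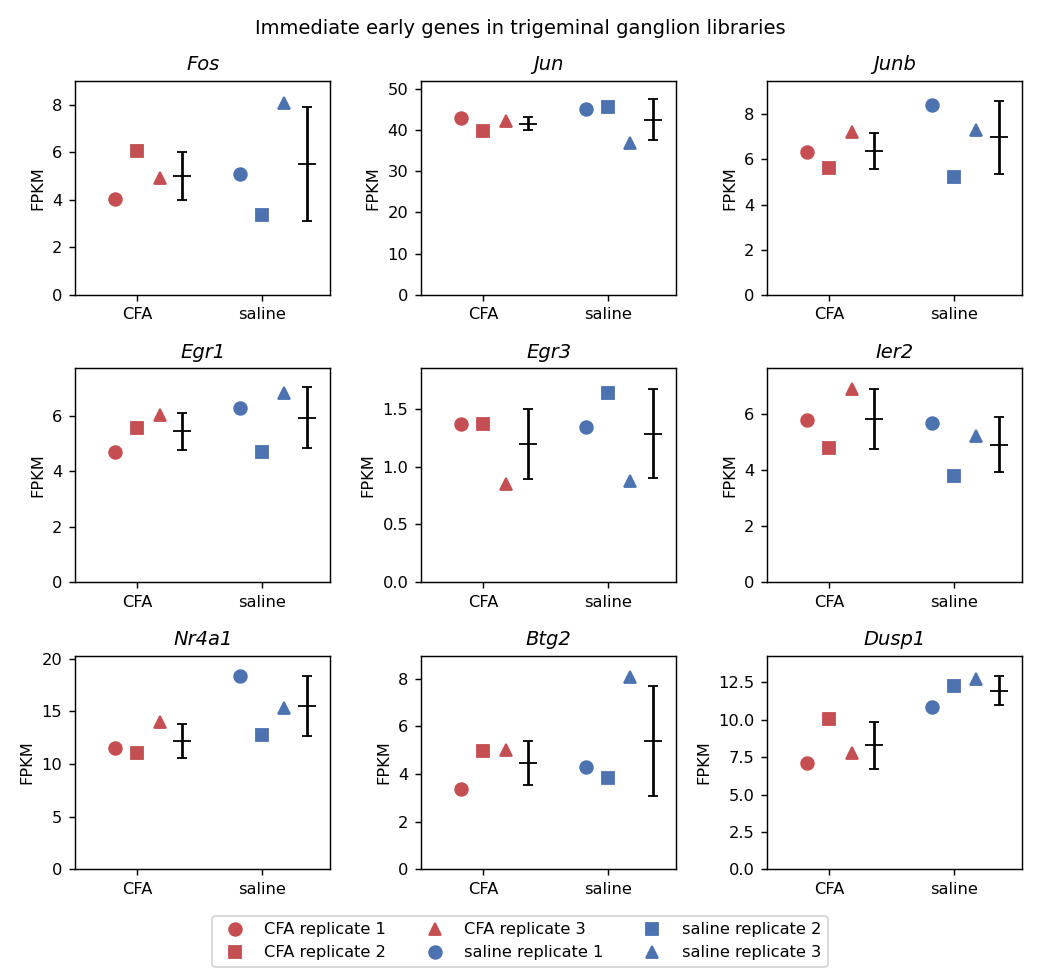
FPKM (vertical axes, linear from 0) of the 9 immediate early genes in 3 CFA libraries (red) and 3 saline libraries (blue), with marker shapes for the replicate number, a short line for the group mean and bars for its SD (n = 3). Dusp1 is the one panel in which all CFA values, 7.08 to 10.1 FPKM, lie below all saline values, 10.9 to 12.7 FPKM.

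Dusp1 encodes a nuclear phosphatase that removes the activating phosphates from MAP kinases and so closes the signal that induces immediate early genes. It is also a known glucocorticoid-induced gene. Dusp1 stood at 7.08, 10.1 and 7.75 FPKM in CFA replicates 1, 2 and 3, against 10.9, 12.2 and 12.7 FPKM in saline replicates 1, 2 and 3. Every CFA library was below every saline library. The means were 8.30 ± 1.56 FPKM with CFA and 11.9 ± 0.974 FPKM with saline (SD, n = 3 each), a ratio of 0.695. The log2 fold change was −0.49 (SE 0.134, 95% confidence interval −0.81 to −0.17), with a limma adjusted p of 0.418 over all genes tested and an unadjusted p of 0.00921. The direction held without any single library, with log2 fold changes of −0.62 to −0.39 and limma unadjusted p-values of 0.00117 to 0.0322. Dusp1 is annotated at positions 26505590 to 26508519 of chromosome 17 (GRCm38). Exons of Ergic1 on the other strand overlap it, and no source used here says whether strand was used to assign reads. The summed markers of satellite glia and of central nervous system tissue also separated the groups, with no marker at 0. Of 12 satellite glia markers tested, 8 were higher and 4 lower under CFA. They summed to 2041 to 2507 FPKM in CFA libraries and 1480 to 1789 FPKM in saline libraries. Markers of central nervous system tissue, with 11 of 12 tested higher under CFA, summed to 338 to 403 FPKM in CFA libraries and 231 to 294 FPKM in saline libraries. Over all genes tested, 51.4% were higher under CFA and 7.89% were higher without overlap. Of 14 macrophage markers 13 had a higher mean with CFA and 9 did not overlap between the groups, with a median log2 fold change of 0.42 and none at 0. Their sum overlapped, at 241 to 266 FPKM in CFA libraries and 182 to 517 FPKM in saline libraries, and the highest saline sum included 396 FPKM of Lyz2, a lysozyme gene of macrophages and neutrophils. The part of these cells and tissues in the Dusp1 level was not tested.

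Among the AP-1 members, Fos, the gene most often read as a mark of recent neuronal activity, varied widely within both groups. Fos was at 4.04, 6.05 and 4.94 FPKM in CFA replicates 1, 2 and 3, against 5.08, 3.37 and 8.09 FPKM in saline replicates 1, 2 and 3. The lowest and the highest Fos values were both in saline libraries, so that all CFA values lay between them. The means of Fos were 5.01 ± 1.01 FPKM with CFA and 5.51 ± 2.39 FPKM with saline (SD, n = 3 each). Its log2 fold change of −0.06 had an SE of 0.271 and a limma adjusted p of 0.961, and the 95% confidence interval of −0.71 to 0.58 is the widest among the members. The sign depended on single libraries: it was 0.21 without saline replicate 3 and −0.32 without saline replicate 2. Fos lies on chromosome 12 at 85473890 to 85477273.

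Jun, the AP-1 partner of FOS that sensory neurons also raise after axon injury, was the most abundant of the 9 genes and the most even. Jun was at 42.9, 39.8 and 42.1 FPKM in CFA replicates 1, 2 and 3, against 45.2, 45.7 and 36.8 FPKM in saline replicates 1, 2 and 3. The CFA values lay inside the range of the saline values. Its log2 fold change was −0.03 (SE 0.0998, limma adjusted p = 0.954), with a 95% confidence interval of −0.27 to 0.21. Junb, which encodes another JUN protein and can oppose JUN at some targets, was at 6.32, 5.62 and 7.21 FPKM in CFA replicates 1, 2 and 3, against 8.41, 5.23 and 7.31 FPKM in saline replicates 1, 2 and 3. Here too the saline libraries held both extremes, and the log2 fold change was −0.10 (SE 0.169, limma adjusted p = 0.872). Jun lies on chromosome 4 at 95049034 to 95052222 and shares exon sequence with the antisense gene Junos. Junb lies on chromosome 8 at 84974484 to 84978718, where Prdx2 exons on the other strand overlap it.

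Of the EGR genes, Egr1, a zinc finger factor induced by many growth signals, was at 4.72, 5.58 and 6.03 FPKM in CFA replicates 1, 2 and 3, against 6.29, 4.71 and 6.81 FPKM in saline replicates 1, 2 and 3. The 2 groups overlapped, with all CFA values inside the saline range. The log2 fold change of Egr1 was −0.10 (SE 0.146, 95% confidence interval −0.45 to 0.25, limma adjusted p = 0.841). Egr3, a relative needed for muscle spindle development and its sensory innervation in mice, was the least abundant member. It was at 1.37, 1.37 and 0.848 FPKM in CFA replicates 1, 2 and 3, against 1.35, 1.64 and 0.877 FPKM in saline replicates 1, 2 and 3. The lowest value of each group was in the library numbered 3, and the log2 fold change was −0.05 (SE 0.167, limma adjusted p = 0.938). At this level the pseudocount of 1 shrinks fold changes, and with a pseudocount of 0.1 it was −0.09. Egr1 lies on chromosome 18 at 34859823 to 34864984 and Egr3 on chromosome 14 at 70077203 to 70082614.

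Nr4a1, the orphan nuclear receptor also called NUR77, was at 11.5, 11.1 and 14.0 FPKM in CFA replicates 1, 2 and 3, against 18.4, 12.7 and 15.3 FPKM in saline replicates 1, 2 and 3. Of its CFA values, 2 were below the lowest saline value and CFA replicate 3 was not. The means were 12.2 ± 1.60 FPKM with CFA and 15.5 ± 2.83 FPKM with saline (SD, n = 3 each). Its log2 fold change of −0.31 (SE 0.149, 95% confidence interval −0.67 to 0.04) had a limma adjusted p of 0.621 and an unadjusted p of 0.0771. The unadjusted p was 0.0232 without saline replicate 2 and 0.220 without saline replicate 1 in the same limma fit. Nr4a1 lies on chromosome 15 at 101266846 to 101274792.

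The remaining members are regulators of other kinds. Ier2 encodes a small nuclear protein and was the one member with a higher mean under CFA. Ier2 was at 5.79, 4.76 and 6.90 FPKM in CFA replicates 1, 2 and 3, against 5.68, 3.79 and 5.22 FPKM in saline replicates 1, 2 and 3. CFA replicate 2 lay below 2 of the saline libraries, so the groups overlapped, and the log2 fold change was 0.21 (SE 0.169, 95% confidence interval −0.19 to 0.61, limma adjusted p = 0.730). Btg2, an antiproliferative protein that speeds mRNA deadenylation and a known p53 target, was at 3.39, 4.97 and 4.996 FPKM in CFA replicates 1, 2 and 3, against 4.31, 3.83 and 8.06 FPKM in saline replicates 1, 2 and 3. Saline replicate 3 was far above the other 5 libraries. The log2 fold change of Btg2 was −0.19 (SE 0.259, limma adjusted p = 0.834) with all libraries and 0.09 without saline replicate 3. Ier2 lies on chromosome 8 at 84661331 to 84662852 and Btg2 on chromosome 1 at 134075170 to 134079120.

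**Figure D2:**
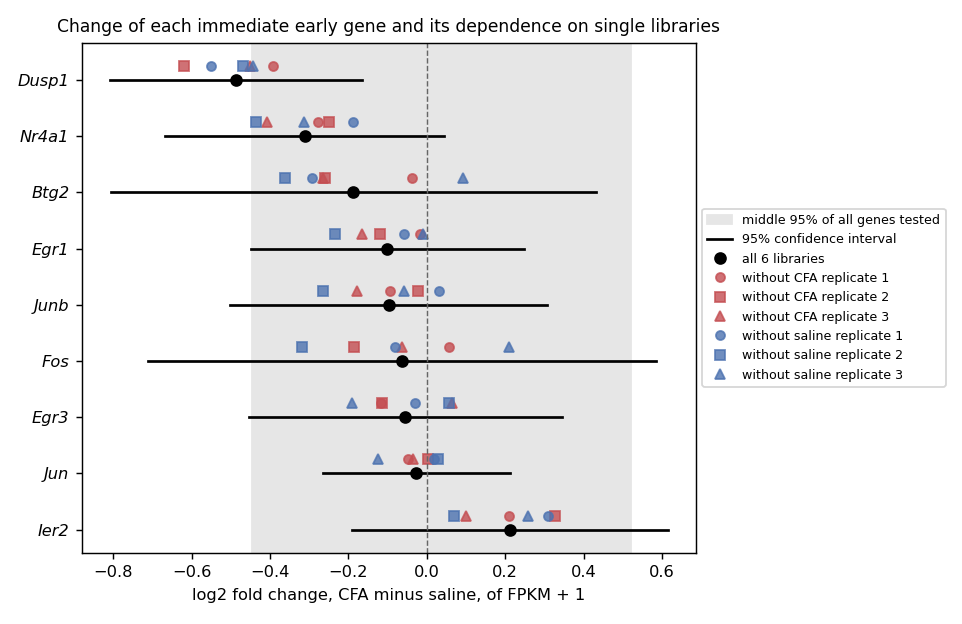
Log2 fold change, CFA minus saline, of FPKM + 1 (horizontal axis) for each immediate early gene, with its 95% confidence interval from limma as a line, the value without each single library as coloured marks just above it, and the middle 95% of all genes tested as the grey band from −0.45 to 0.52. The interval of Dusp1 is the one that does not reach 0, and for Fos, Btg2, Junb, Egr3 and Jun at least 1 mark lies on the other side of 0.

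In order of level, the mean over the 6 libraries was 42.1 FPKM for Jun, 13.8 for Nr4a1, 10.1 for Dusp1, 6.68 for Junb, 5.69 for Egr1, 5.36 for Ier2, 5.26 for Fos, 4.92 for Btg2 and 1.24 FPKM for Egr3. Jun was above all other members in every library, and Egr3 was below them in every library. The ranges of Junb, Egr1, Ier2, Fos and Btg2, from 3.37 to 8.41 FPKM together, overlapped each other and did not separate beyond their spread. Jun exceeded 91.9% of the rows of the table, Nr4a1 74.7%, Fos 48.2% and Egr3 13.9%.

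The members differed in how much they varied between libraries of the same group. The SD within groups on the log2(FPKM + 1) scale was 0.412 for Fos and 0.391 for Btg2, larger than in 92.4% and 91.8% of genes tested. Jun, at 0.127, was below the median gene, at 0.139, and the other 8 members were above it. Across the 6 libraries the highest Fos value was 2.40 times the lowest, the highest Btg2 value 2.38 times the lowest, and the highest Jun value 1.24 times the lowest. Together with the variance that limma shares across all genes tested, the SDs within groups set the width of the intervals above.

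The members did not vary as a single block. Over the 6 libraries, which share their 2 groups and their dissections, the Pearson correlations of log2(FPKM + 1) between members had a median of 0.26 over 36 pairs, and are given here as a description. Fos went with Btg2 (r = 0.91) and with Egr1 (r = 0.85), and Junb went with Nr4a1 (r = 0.85). Jun ran against Fos (r = −0.89) and against Btg2 (r = −0.85). Saline replicate 3 held the highest value of 4 members (Fos, Btg2, Egr1 and Dusp1) and the lowest of Jun, and saline replicate 2 held the lowest value of 4 members (Fos, Junb, Egr1 and Ier2). No member had its highest value in CFA replicate 1 or 2.

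No member ordered all 6 libraries as a marker sum of other tissue did, and some shared part of an order. Fos was highest in saline replicate 3 and next in CFA replicate 2, and these were the libraries with the largest and the next largest neutrophil sums, 591 and 337 FPKM, with each of the 13 neutrophil markers above the other 4 libraries in both. The order of the rest differed, since saline replicate 2 was next in the neutrophil sum, at 87.4 FPKM, and lowest in Fos. Junb and Ier2 were lowest in CFA replicate 2 and in saline replicate 2 within their groups, and so were the pituitary sum, at 313 and 266 FPKM, and Nr4a1. All 3 of these genes were highest in CFA replicate 3 among CFA libraries, as was the pituitary sum. Among saline libraries the order differed, since the pituitary sum was highest in replicate 3 and Junb, Nr4a1 and Ier2 were highest in replicate 1. The part of these tissues in the levels of the members was not tested. Without CFA replicate 2 and saline replicate 3, 5 of 9 members were lower under CFA, with a median log2 fold change of −0.03, and Dusp1 stood at −0.58.

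**Figure D3:**
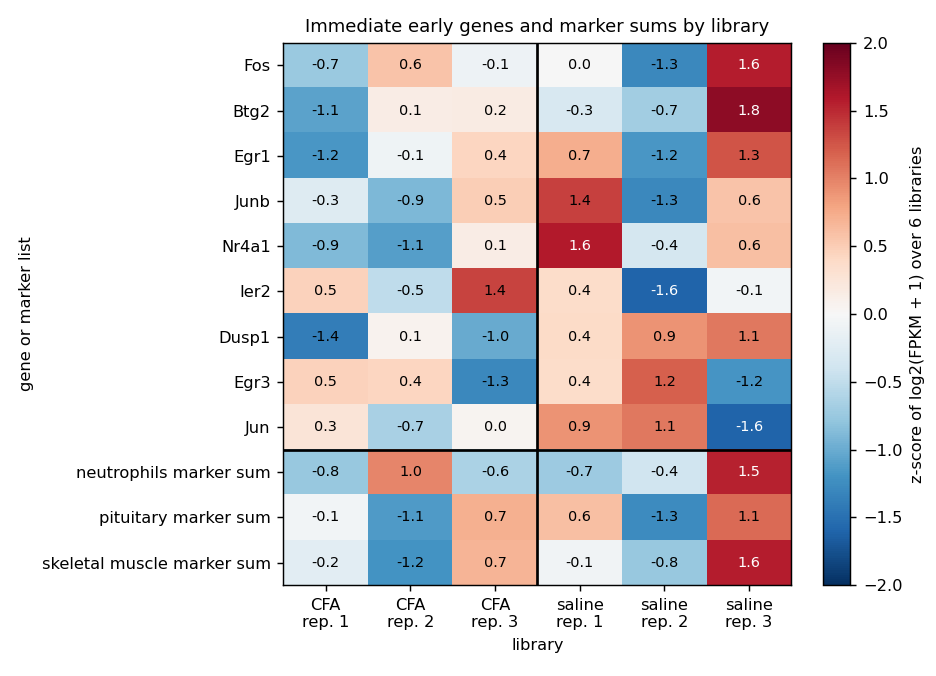
Z-scores over the 6 libraries of log2(FPKM + 1) for the 9 immediate early genes (rows above the line) and of the log2 summed FPKM + 1 of 3 marker lists (rows below it), with CFA libraries left of the vertical line and saline libraries right of it. Fos, Btg2, Egr1 and Dusp1 are highest in saline replicate 3, where Jun is lowest and all 3 marker sums are highest.

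The genes whose pattern over the 6 libraries was most like the mean z-score of the 9 members were Plagl1, a zinc finger transcription factor (r = 0.99), Tada2a, an adaptor of histone acetyltransferase complexes (r = 0.99), Rnf168, a ubiquitin ligase of the DNA damage response (r = 0.98), and Luzp1, Emsy, Oxa1l, Zranb1 and Eif2s3y (r = 0.97 each). These were picked as the highest among the other genes tested, each over 6 points. Genes named Gm plus digits or with names ending in Rik were left out of that ranking. The member closest to that mean was Nr4a1 (r = 0.92), then Egr1 (r = 0.91), while Jun (r = −0.24) and Egr3 (r = −0.50) ran against it. Plagl1 was at 10.4, 11.7 and 12.3 FPKM in CFA replicates 1, 2 and 3, against 14.2, 10.9 and 13.7 FPKM in saline replicates 1, 2 and 3, with overlapping groups.

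In the list of other AP-1 genes and dimer partners 12 of 16 were tested, 7 higher and 5 lower under CFA with a median log2 fold change of 0.05, and none reached an adjusted p below 0.05. Without saline replicate 3, 4 were higher and 7 lower of 11 tested. Jdp2, an AP-1 repressor, was lower without overlap, at 5.96 ± 0.768 FPKM with CFA and 7.10 ± 0.0812 FPKM with saline (SD, n = 3 each; limma adjusted p = 0.613). Atf3, the injury-induced factor of axotomised sensory neurons, was at 4.15, 4.66 and 5.14 FPKM in CFA replicates 1, 2 and 3, against 5.33, 4.88 and 5.23 FPKM in saline replicates 1, 2 and 3, and the groups overlapped (limma adjusted p = 0.721). Fosl2, Jund, Mafk, Maff, Mafg, Maf, Atf2, Atf4 and Atf7 overlapped between the groups too, with log2 fold changes of −0.20 (Mafk) to 0.34 (Fosl2).

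Of 6 other EGR and NR4A genes and EGR co-repressors 4 were tested. All 4 had a lower mean under CFA than under saline, and none reached an unadjusted p below 0.05 by limma. Nr4a2, the closest relative of Nr4a1 in this list, was at 3.77, 4.52 and 3.62 FPKM in CFA replicates 1, 2 and 3, against 5.49, 4.72 and 4.18 FPKM in saline replicates 1, 2 and 3. CFA replicate 2 was above saline replicate 3, so the groups overlapped (log2 fold change −0.22, limma adjusted p = 0.658). Egr2, which Schwann cells need for myelination, was at 13.5 ± 1.48 FPKM with CFA and 14.8 ± 4.45 FPKM with saline (SD, n = 3 each). The co-repressors Nab1 and Nab2 had log2 fold changes of −0.15 and −0.06, and the sign of Egr2 and of Nab2 turned in 3 of 15 alternative settings each.

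Among 55 other rapidly induced genes 48 were tested, 16 higher and 32 lower under CFA, with a median log2 fold change of −0.06. None reached an adjusted p below 0.05, and at an unadjusted p below 0.05 stood 1 higher and 7 lower, where 5.37% of all genes tested were higher and 2.95% lower at that threshold. Without saline replicate 3, 19 were higher and 29 lower, of which 1 and 6 had an unadjusted p below 0.05. The 7 lower calls became 4 without CFA replicate 1 and 4 without saline replicate 2. Sgk1, a kinase that glucocorticoids and osmotic stress induce, was at 16.4, 15.9 and 14.5 FPKM in CFA replicates 1, 2 and 3, against 25.9, 29.3 and 26.3 FPKM in saline replicates 1, 2 and 3, with a log2 fold change of −0.76 (SE 0.0841, limma adjusted p = 0.0571). Its limma adjusted p passed the threshold in 1 of 15 alternative settings, at 0.0381 among genes averaging 5 FPKM or more, and was 0.0805 to 0.167 without any single library. Nfkbia, the inhibitor of NF-kB that the factor itself induces, was at 32.5 ± 2.34 FPKM with CFA and 44.0 ± 4.55 FPKM with saline, and Tob2, an antiproliferative relative of Btg2, at 5.32 ± 0.149 FPKM with CFA and 6.55 ± 0.239 FPKM with saline (SD, n = 3 each). Neither overlapped between the groups, with log2 fold changes of −0.42 (Nfkbia, limma adjusted p = 0.312) and −0.26 (Tob2, limma adjusted p = 0.464).

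Arc went the other way. It encodes a capsid-forming protein of dendrites and synapses and is induced by neuronal activity. Arc was at 2.30, 1.94 and 2.11 FPKM in CFA replicates 1, 2 and 3, against 1.41, 0.910 and 1.15 FPKM in saline replicates 1, 2 and 3. Every CFA library was above every saline library, at means of 2.12 ± 0.178 FPKM with CFA and 1.16 ± 0.251 FPKM with saline (SD, n = 3 each). The log2 fold change was 0.54 (SE 0.116), with a limma adjusted p of 0.261 over all genes tested and an unadjusted p of 0.00284. It stayed at 0.45 to 0.62 without any single library, and was 0.83 with a pseudocount of 0.1. The summed markers of central nervous system tissue were also higher in each CFA library than in any saline library, as given above. Of the 12 markers tested, 8 were higher without overlap, where 7.89% of all genes tested were. Slc17a7 was the 1 with a lower mean, at 17.6 FPKM with CFA and 18.4 FPKM with saline. The part of this tissue in the Arc level was not tested.

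**Figure D4:**
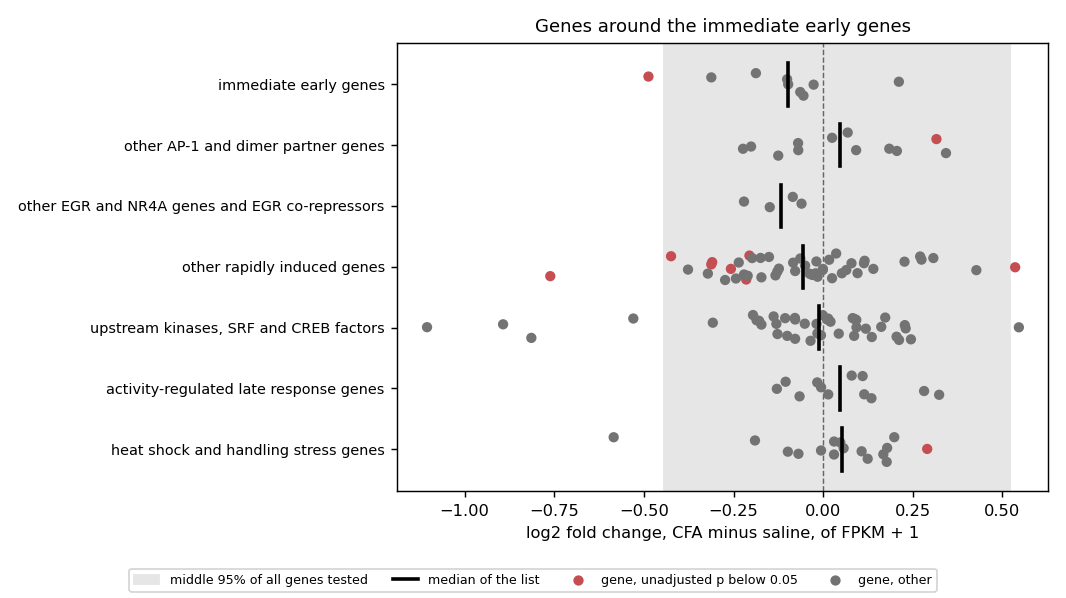
Log2 fold change, CFA minus saline, of FPKM + 1 (horizontal axis) for each gene tested in 7 lists, with a black line at the list's median, red points for genes at a limma unadjusted p below 0.05 and the middle 95% of all genes tested as the grey band. Medians run from −0.12 to 0.05, and Dusp1 among the immediate early genes and Sgk1 and Arc among the other rapidly induced genes are red points outside the band.

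No gene of the upstream machinery passed the test. Of 42 tested rows of kinases and of SRF, CREB and MEF2 factors, 19 were higher and 23 lower under CFA, with a median log2 fold change of −0.01, and 0 reached an unadjusted p below 0.05 by limma. Map2k3, a kinase that activates p38, was at 5.62 ± 0.180 FPKM with CFA and 4.76 ± 0.429 FPKM with saline (SD, n = 3 each; limma adjusted p = 0.611). Crebbp, the CREB-binding coactivator, was at 4.91 ± 0.40 FPKM with CFA and 5.77 ± 0.380 FPKM with saline (SD, n = 3 each; limma adjusted p = 0.621). Large differences in this list came from single libraries: Rps6ka3 was at 17.5 FPKM in saline replicate 2 and at 1.69 to 5.27 FPKM in the other 5, and Mef2d at 1.44 FPKM in CFA replicate 3 and at 7.35 to 9.42 FPKM in the other 5.

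Of 12 tested genes that neuronal activity raises later, 7 were higher and 5 lower under CFA, with a median log2 fold change of 0.05 and 0 at an unadjusted p below 0.05 by limma. Bdnf, the neurotrophin, was at 7.36, 8.60 and 8.25 FPKM in CFA replicates 1, 2 and 3, against 7.60, 6.67 and 7.51 FPKM in saline replicates 1, 2 and 3, and the neuropeptide precursor Vgf was at 33.2 ± 7.06 FPKM with CFA and 27.2 ± 5.98 FPKM with saline (SD, n = 3 each). Both overlapped between the groups, with limma adjusted p-values of 0.710 for Bdnf and 0.715 for Vgf. The synaptic pentraxin Nptx1 and the neurite outgrowth gene Nrn1 had log2 fold changes of −0.07 and 0.32 and overlapped as well.

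Heat shock genes, which tissue handling can raise together with immediate early genes, were all tested, 16 of 16. Under CFA 11 were higher and 5 lower, with a median log2 fold change of 0.05. Hsph1, a cytosolic chaperone, was the one gene at an unadjusted p below 0.05 by limma, at 33.7 ± 3.67 FPKM with CFA and 27.4 ± 3.28 FPKM with saline (SD, n = 3 each; limma adjusted p = 0.598), and its groups overlapped. Its unadjusted p was 0.0686 to 0.155 when CFA replicate 1 or 3, or saline replicate 1 or 2, was left out, and 0.0555 to 0.0607 with a common total, quantile normalization or no trend. Without CFA replicate 3, 8 heat shock genes were higher and 8 lower. Hspd1, the mitochondrial chaperonin, was at 111 ± 3.55 FPKM with CFA and 96.8 ± 8.16 FPKM with saline (SD, n = 3 each; limma adjusted p = 0.601), without overlap. Its co-chaperonin Hspe1 was at 71.9 ± 2.38 FPKM with CFA and 65.9 ± 3.93 FPKM with saline (SD, n = 3 each; limma adjusted p = 0.684), also without overlap. Dnajb4, an HSP40 co-chaperone, was at 3.07 FPKM in CFA replicate 2 and at 8.92 to 11.7 FPKM in the other 5 libraries.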

How the data were processed

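RNA of 6 mouse trigeminal ganglion libraries was measured after poly(A) selection with a KAPA stranded kit, per the labels' protocols. The authors deposited FPKM per gene, per the file headers, and the submitters' processing notes name GRCm38. Aligner, quantifier, annotation release and use of strand: not given in the sources used here. Rows with several GENCODE M21 transcripts and more than 6 decimals numbered 10493. Of these, 99.9% became 6-decimal numbers when multiplied by the gene's merged exon length (tolerance 0.05 of the last decimal). Gene values are therefore set per that length, in which overlapping exons of a gene's transcripts are merged. In every row the larger group mean was at least 0.501 FPKM. No whole-read steps were found (strongest step strength 0.272, where 1 is perfect), so depth is unknown and no counting interval is given. Each library's FPKM summed to between 261183 and 275152, and rank correlations between libraries from 0.954 to 0.973.

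Groups were taken from the labels. log2(FPKM + 1) was compared with limma 3.58.1 (R 4.3.3, eBayes with trend, two-sided, no covariate) over the 12238 genes that averaged 1 FPKM or more, and the functions were tested on simulated data. An exact permutation test of 3 against 3 cannot go below 0.1 and was not used. The settings varied in turn were the pseudocount (0.1), the filter (none, or 5 FPKM on average), the scaling (common total, median of ratios, quantile), the trend in eBayes, a replicate block, each library left out, and, added after seeing the data, CFA replicate 2 and saline replicate 3 left out together. The members and gene lists were chosen with earlier results of these data known. Named genes are the members, tested AP-1, EGR and NR4A relatives (1 is not reported here), the 4 with the smallest p of each other list, and the 8 most like the members' mean. Figures were drawn with matplotlib 3.10.9.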

Additional observations from a re-analysis of the deposited data

How the results depend on the processing

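Over 15 alternative settings no immediate early gene reached an adjusted p below 0.05 by limma (133 gene and setting pairs, smallest adjusted p 0.193, for Dusp1 without CFA replicate 2). Dusp1, Nr4a1, Egr1 and Ier2 kept their direction in each setting in which they were tested. In the 8 settings that keep all 6 libraries no member turned, and each of the 12 turns came from leaving out libraries. Without any one library, Fos ran from −0.32 to 0.21 (0.06 without CFA replicate 1), Btg2 from −0.36 to 0.092 (without saline replicate 3), Jun from −0.13 to 0.03 (0.0041 without CFA replicate 2, 0.018 without saline replicate 1 and 0.027 without saline replicate 2), Junb from −0.27 to 0.031 (without saline replicate 1) and Egr3 from −0.19 to 0.065 (without CFA replicate 3; 0.056 without saline replicate 2). Without CFA replicate 2 and saline replicate 3 together, Fos was at 0.09, Junb at 0.02, Btg2 at 0.02 and Egr3 at −0.25. The members' median log2 fold change ran from −0.27 (without saline replicate 2) to −0.03 (without CFA replicate 2 and saline replicate 3). The members' median in single libraries had a within-group SD of 0.170, which is not the error of that fold change. The count of members at an unadjusted p below 0.05 was 1 to 2 without any one library, with Nr4a1 joining Dusp1 without CFA replicate 3 or saline replicate 2. The count of genes called among all tested was 7, with a range of 5 to 19 without any one library and 21 without CFA replicate 2 and saline replicate 3. With the replicate number as a block it was 1, the other rapidly induced genes held 2 higher and 4 lower with an unadjusted p below 0.05, and Sgk1 had a limma adjusted p of 0.296. Deviations of same-numbered libraries from their group means had correlations of 0.080, 0.11 and −0.048 for numbers 1, 2 and 3. Those of libraries with unlike numbers ran from −0.18 to 0.11. With 3 libraries per group, these values cannot decide whether the numbers pair the samples. The limma adjusted p of Sgk1 was 0.10 with median-of-ratios scaling and 0.0838 with quantile normalization. The cause of these shifts was not tested. Depth is unknown, and 3 libraries per group left intervals of −0.71 to 0.58 for Fos and −0.27 to 0.21 for Jun.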
